A study of Homo sapiens with 12 samples.

Results

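The genes described here are 10 members of the BCL2 family, the proteins that decide at the mitochondrion whether a cell survives or dies. They were taken by name from the expression table, which holds 22963 gene names, and all 10 names were found. BCL2, BCL2L1, MCL1 and BCL2A1 are guardians that keep cells alive, BAK1 is an effector that opens the mitochondrial outer membrane, and BID, BIK, BMF, PMAIP1 and BCL2L11 are BH3-only genes that promote death. Messenger RNA was measured in 12 libraries from the hepatocellular carcinoma (HCC) cell lines PLC/PRF5 and MHCC97H, in 4 groups of 3. The first comparison asked what EGR1, a zinc finger transcription factor of the immediate early response, does to expression when it is overexpressed, and the other asked the same of its loss by genome editing. Values are FPKM, the fragments assigned to a gene scaled to the length of its transcript and to the depth of the library. Levels of different genes are set side by side on this scale only. GC content differs between genes and the libraries were thinned of abundant sequences, and FPKM do not adjust for either.

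In PLC/PRF5 the groups were control cells with the vector and cells with EGR1 overexpression. In the study's plasmid the EGR1 coding sequence stood behind a CMV promoter, and the plasmid also carried copGFP and a puromycin resistance gene. In MHCC97H the groups were parental cells and cells labelled EGR1 knockout. The knockout lines were made with lentiCRISPR-v2 and grown as single clones, and the paper reports that western blot and DNA sequencing verified the knockouts. Which clone gave the RNA libraries is not stated. The column headers call the parental libraries Mock, a name that the paper does not explain. The knockout label, the clone and the lentiviral delivery of the editing construct can therefore not be told apart. Both lines grew in DMEM with fetal bovine serum. The labels call the libraries biological replicates without saying whether they came from separate cultures, so the p-values measure the spread between these libraries.

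Cells commit to death through the mitochondrion when BAK1 or its relative BAX forms pores in the outer membrane and cytochrome c escapes. Guardians hold the effectors in check by binding the BH3 helix that all these proteins share. BH3-only proteins occupy the groove of the guardians or act on the effectors directly, and each binds its own choice of guardians: the product of PMAIP1 (NOXA) binds chiefly those of MCL1 and BCL2A1, whereas the product of BCL2L11 (BIM) binds every guardian. HCC cells are known for depending on the products of MCL1 and BCL2L1 (BCL-XL) for survival. Messenger RNA levels do not show protein amounts, splice forms or the phosphorylation and cleavage that many of these proteins need.

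Summed FPKM ranged from 376335 to 437652 over the libraries, and 5407 to 6624 names were listed at 0. Pearson's r between the log2(FPKM + 1) values of replicate libraries was 0.993 to 0.997, across genes, which are not independent replicates. The number of reads is unknown, so that no counting error can be given. EGR1 itself stood at 1.97, 1.43 and 2.03 FPKM in vector libraries and at 56.3, 50.2 and 52.2 with overexpression. In MHCC97H it stood at 20.2, 23.1 and 21.2 in parental libraries and at 35.2, 50.3 and 32.9 in those labelled knockout. EGR1 mRNA was thus higher and not lower in the libraries labelled knockout, by 0.83 on the log2 scale (limma adjusted p = 0.00126), or by 0.42 after correction for transcript GC content and length (limma adjusted p = 0.0608). FPKM counts edited transcripts too. Of 11 hepatocyte markers, 10 reached a mean of 1 FPKM in vector and 5 in parental cells, where ALB had a mean of 0.885 and GPC3 was at 0 in each library, so that MHCC97H held little of the hepatocyte programme. Of 5 epithelial markers, 2 reached a mean of 1 FPKM in each PLC/PRF5 group and 4 in each MHCC97H group; KRT8 had a mean of at least 1102 FPKM in each, and EPCAM was at 0 in the overexpression libraries. The leukocyte markers PTPRC and CD3E reached at most 0.0587 FPKM, although LYZ stood at a mean of 142 in vector and CD79A at 24.0 in parental cells. CD68 had a mean of 28.5 in parental and 53.8 in labelled knockout cells. Of 6 fibroblast markers, 0 reached a mean of 1 FPKM in each PLC/PRF5 group and 1 in each MHCC97H group, LUM, at 8.68 in parental and 1.18 in labelled knockout cells. PECAM1 was the highest of 4 endothelial markers in each group, at 2.43 in vector and 5.10 in parental cells.

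BCL2L1 had the highest mean FPKM of the members in PLC/PRF5 cells, and MCL1 had it in MHCC97H cells. In vector cells the order of mean FPKM was BCL2L1 (136), MCL1 (62.0), BAK1 (25.0), PMAIP1 (8.88), BCL2L11 (2.47), BMF (2.02) and BIK (0.534), each separated from the next by ranges that did not overlap. BID (0.181), BCL2A1 (0.127) and BCL2 (0.0243) followed with overlapping ranges. In parental cells the order was MCL1 (84.9), BCL2L1 (27.9), BID (27.3), PMAIP1 (15.3), BAK1 (11.8), BIK (4.78), BMF (4.23), BCL2L11 (4.19), BCL2 (0.162) and BCL2A1 (0.0731). There the ranges overlapped between BCL2L1 and BID, between PMAIP1 and BAK1, from BIK to BCL2L11 and between BCL2 and BCL2A1, so these neighbours cannot be ordered. BCL2, the founder of the family, reached at most 0.233 FPKM in the 12 libraries.

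**Figure D1:**
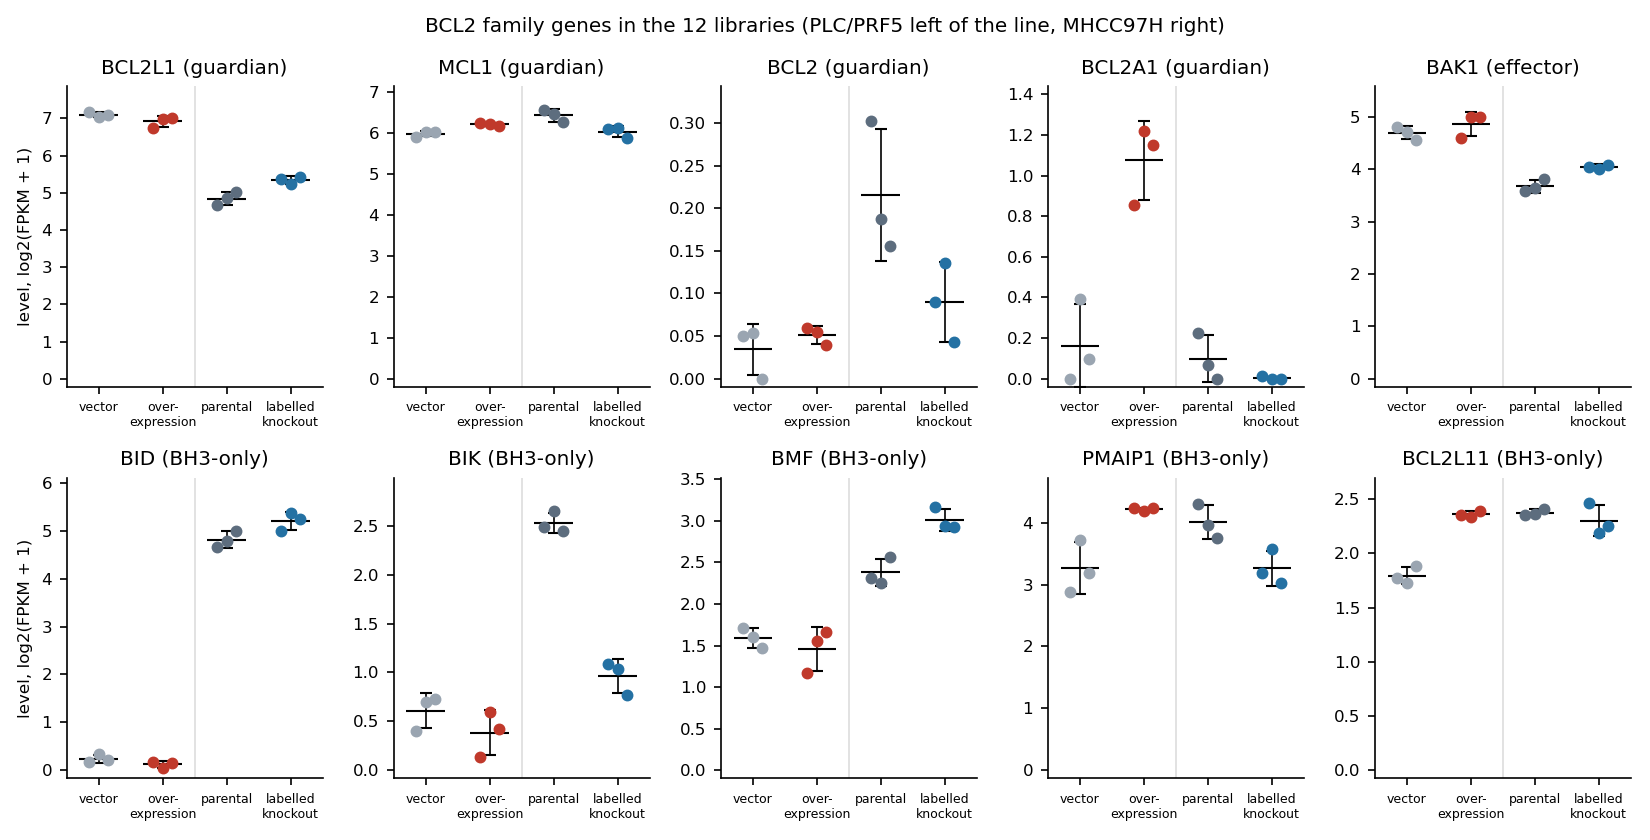
Level of each member as log2(FPKM + 1) on the vertical axis, with 1 point for each library, the mean as a line and the SD as a bar (n = 3), and vector, EGR1 overexpression, parental and labelled knockout from left to right. PMAIP1 and BCL2L11 lie higher with overexpression than with the vector, BIK lies lower in the labelled knockout than in parental cells, and BID is close to 0 in the 6 PLC/PRF5 libraries.

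In PLC/PRF5 cells the RNA of PMAIP1 and BCL2L11, both BH3-only genes, was higher with EGR1 overexpression than with the vector. PMAIP1 had 1.98 times and BCL2L11 1.67 times the mean FPKM of vector cells. MCL1 and BCL2L1 moved by less than 0.25 on the log2 scale in opposite directions, and neither passed the test. Groups were compared with limma on log2(FPKM + 1), for genes that averaged at least 1 FPKM in the 6 libraries, with 2-sided p-values adjusted by the Benjamini-Hochberg method over all genes tested and called under 0.05. Of the 10 members, 6 passed that filter and 2 were called, both higher. Among all 11671 genes tested, 29.6% were called, 19.2% as higher and 10.4% as lower, so the share of members called is close to that of all genes. The same 2 were called after the GC and length correction, beside 33.8% of all genes. The share of calls that were higher was 64.8% as deposited, 46.0% after quantile normalization and 48.6% after the GC and length correction. None of the 6 members tested reached a 2-fold change in this fit on the log2(FPKM + 1) scale, whatever its p. The hepatocyte markers moved with EGR1 overexpression, since the summed FPKM of the 11 markers was 1783 to 1924 in vector and 2682 to 3639 in overexpression libraries, 10 of the 11 reached a mean of 1 FPKM in each group, SERPINA1 had a mean of 1372 against 2580 and TTR was at 0 in each overexpression library. The part of this in the members' changes was not tested.

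Because PMAIP1 and BCL2L11 are the members that passed, the sequence before their RefSeq start sites is shown on the coding strand, 5′ to 3′, each stretch 200 bases long and ending 50 bases before the start. A consensus of EGR1 binding, GCGNGGGCG with N for any base, was searched on both strands of the 300 bases from 250 before to 50 after each start, and capitals mark a match. The BCL2L11 stretch is chr2:111120664-111120863 on the plus strand and the PMAIP1 stretch is chr18:59899746-59899945 on the plus strand, both on GRCh38.p14. Neither overlaps an exon of GENCODE 29. The BCL2L11 stretch nevertheless lies inside the span of its GENCODE 29 gene, which begins at 111119378. The PMAIP1 stretch ends before its gene begins, at 59899948.
BCL2L11: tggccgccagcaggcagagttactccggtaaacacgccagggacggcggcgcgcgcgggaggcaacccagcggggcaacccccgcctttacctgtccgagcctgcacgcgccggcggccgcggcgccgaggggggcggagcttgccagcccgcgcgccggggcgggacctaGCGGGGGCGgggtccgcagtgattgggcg
PMAIP1: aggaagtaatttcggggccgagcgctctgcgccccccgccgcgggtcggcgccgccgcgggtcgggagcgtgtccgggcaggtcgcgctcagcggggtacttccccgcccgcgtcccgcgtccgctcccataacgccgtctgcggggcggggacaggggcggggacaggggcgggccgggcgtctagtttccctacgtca
The consensus matched once in the BCL2L11 window, on the plus strand, beginning 79 bases before the start. It did not match in the PMAIP1 window, whose shown stretch is 76.0% G and C, against 77.5% for that of BCL2L11. RefSeq windows were at hand for 8 of the members, 14 windows in all, and the window of BCL2L11 was the only 1 of the 14 with a match. MCL1 and BIK had no entry. Of 35116 promoter windows of all genes, 9.43% held the consensus. A match describes the letters and not a bound site.

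PMAIP1 (chromosome 18, plus strand, 59899948 to 59904306) encodes NOXA, which binds the MCL1 protein and promotes its degradation. Its FPKM was 6.39, 12.2 and 8.08 in vector libraries and 17.8, 17.2 and 17.8 with EGR1 overexpression. The lowest overexpression library lay above the highest vector library, and the vector libraries spread more widely, with a mean of 8.88 ± 2.97 (SD, n = 3) against 17.6 ± 0.352 (SD, n = 3). The log2 fold change was 0.95 (standard error, SE, 0.18, limma adjusted p = 0.00591), and 0.65 after the GC and length correction (limma adjusted p = 7.83e-04). Leaving out single libraries gave 0.77 to 1.18.

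BCL2L11 (chromosome 2, plus strand, 111119378 to 111168447) encodes BIM, a BH3-only protein that binds all guardians and can act on the effectors. It stood at 2.42, 2.31 and 2.68 FPKM in vector libraries and at 4.12, 4.05 and 4.24 with overexpression. The groups were well apart, with means of 2.47 ± 0.191 and 4.14 ± 0.0991 (SD, n = 3). The log2 fold change was 0.57 (SE 0.09, limma adjusted p = 0.00366), and 0.47 after the correction (limma adjusted p = 0.00195). The level with overexpression was close to the 4.11, 4.15 and 4.32 of parental MHCC97H libraries. MIR4435-2HG overlaps BCL2L11 on the other strand, and whether the reads were counted by strand is not stated.

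The guardian MCL1 (chromosome 1, minus strand, 150574551 to 150579738) had an FPKM of 58.8, 63.9 and 63.2 with the vector and of 74.0, 72.7 and 71.1 with overexpression. The groups did not overlap, but the log2 fold change of 0.23 (95% interval 0.05 to 0.40) missed the threshold at a limma adjusted p of 0.0586. Over 15 other fits the adjusted p ran from 0.0458 to 0.182, and 3 of them passed. BCL2L1 (chromosome 20, minus strand, 31664452 to 31723989), which encodes BCL-XL, stood at 142, 131 and 135 FPKM with the vector and at 106, 126 and 129 with overexpression. Its groups did not overlap either, and its log2 fold change was -0.18 (95% interval -0.40 to 0.05, limma adjusted p = 0.198). Both values are small against the rises of PMAIP1 and BCL2L11, although the members were not tested against each other.

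BCL2A1 (chromosome 15, minus strand, 79960889 to 79971446), an inducible guardian best known from blood cells, was under the filter in PLC/PRF5 cells. It was listed at 0, 0.311 and 0.0688 FPKM with the vector and at 0.807, 1.33 and 1.22 with overexpression. Each overexpression library lay above each vector library, yet the highest value is about that of BMF. With genes kept at any FPKM above 0 in at least 1 library, the difference in log2(FPKM + 1) was 0.91 (95% interval 0.58 to 1.24, limma adjusted p = 0.0122), where 9.39% of 19664 genes were called higher. BCL2 was at most 0.0420 FPKM in the 6 libraries of this cell line.

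The effector BAK1 (chromosome 6, minus strand, 33572547 to 33580293) stood at 27.2, 25.3 and 22.6 FPKM with the vector and at 23.2, 30.9 and 31.0 with overexpression. The ranges overlapped, and the log2 fold change was 0.17 (95% interval -0.12 to 0.45, limma adjusted p = 0.339). BMF (chromosome 15, minus strand, 40087890 to 40108892), a BH3-only gene linked to loss of cell attachment, stood at 2.27, 2.03 and 1.77 and at 1.24, 1.93 and 2.18. Its ranges overlapped too, with a log2 fold change of -0.13 (95% interval -0.46 to 0.20, limma adjusted p = 0.517), which became 0.02 without overexpression replicate 1. BIK was at 0.320 to 0.658 FPKM with the vector and at 0.0990 to 0.506 with overexpression, and BID at 0.126 to 0.261 and at 0.0283 to 0.128, all under the filter. The ranges overlapped for both genes, narrowly for BID.

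**Figure D2:**
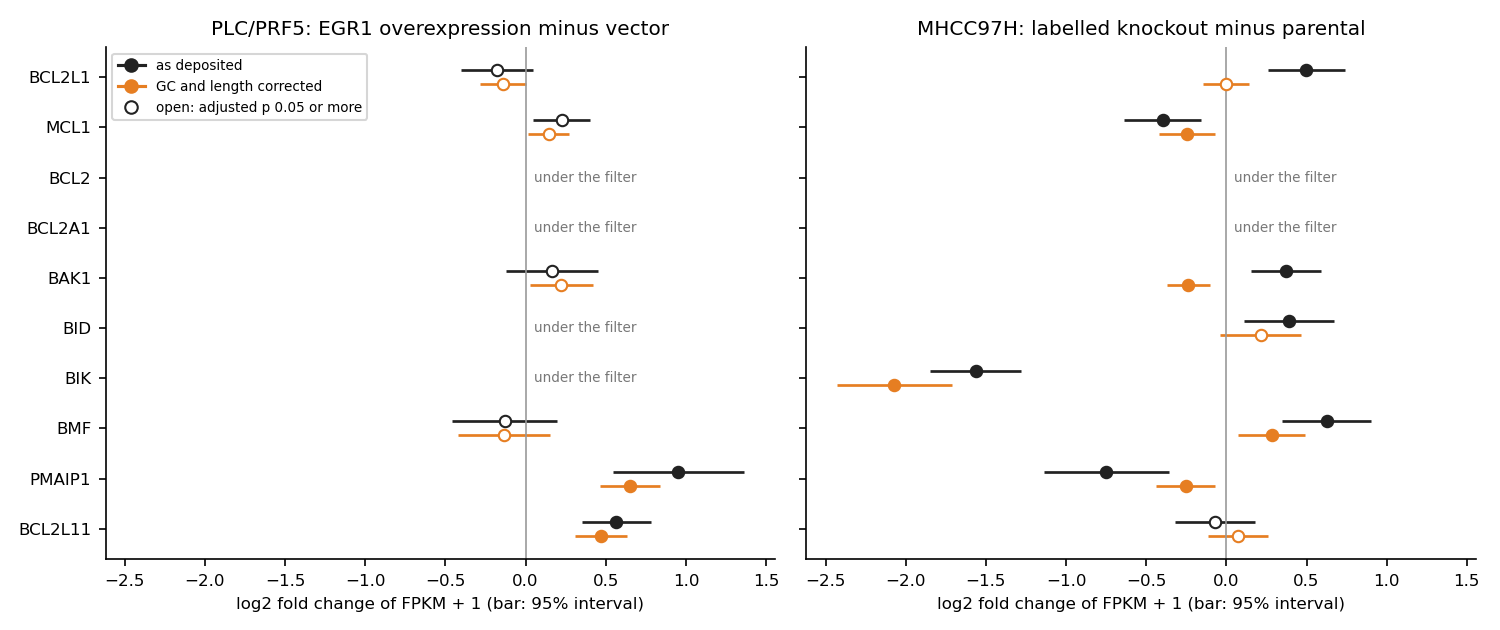
Log2 fold change of FPKM + 1 of each member on the horizontal axis for EGR1 overexpression against vector (left) and labelled knockout against parental (right), as deposited in black and after the GC and length correction in orange, with 95% intervals from limma; filled points have an adjusted p under 0.05. On the left PMAIP1 and BCL2L11 are filled under both settings, and on the right the black and orange points of BAK1 lie on opposite sides of 0.

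In MHCC97H cells the members moved in both directions between the libraries labelled knockout and the parental libraries. The BH3-only genes BIK and PMAIP1 and the guardian MCL1 were lower in the labelled knockout, whereas BMF, BCL2L1, BID and the effector BAK1 were higher. BIK fell to 0.201 times its parental mean FPKM, PMAIP1 to 0.569 times and MCL1 to 0.755 times. BMF rose to 1.67 times, BCL2L1 to 1.42 times, BID to 1.32 times and BAK1 to 1.31 times. Of the 10 members, 8 passed the filter and 7 were called, 4 higher and 3 lower. Among 11577 genes tested, 66.3% were called, 34.8% as higher and 31.5% as lower, so that a call is the rule in this comparison. BIK passed the filter only through the parental group. The knockout label, the clone and the summed FPKM of the 11 hepatocyte markers moved together. The sum was 21.6 to 28.0 in parental and 59.6 to 62.9 in the labelled libraries. The markers did not all move alike. The mean of ALB went from 0.885 to 15.2, whereas HNF4A (9.64 and 7.91) and SERPINA1 (0.212 and 0.151) did not rise. GPC3 was at 0 in each library of both groups. The part of this in the members' changes was not tested.

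The changes in MHCC97H followed the GC content of the transcripts. A fit on GC content and length took up 52.5% of the variance of fold changes over 10806 genes, against 17.9% over 10829 genes in PLC/PRF5. The trends ran in opposite directions. Spearman's correlation of GC content with fold change was 0.753 in MHCC97H and -0.437 in PLC/PRF5, across genes. The part of these trends in changes that were opposite in the cell lines was not tested. The called members split in the same way: the transcripts of BAK1 (58.8% G and C), BCL2L1 (56.9%) and BMF (54.8%) were higher, and those of MCL1 (45.1%) and PMAIP1 (37.2%) lower, while BIK (56.0%) was the exception and BID (49.7%) lay near the median of 48.3% of the genes tested. Each change of a called member is therefore given as deposited and after a spline on GC content and length had been taken out. Biological changes that run with GC content are lost in that correction along with technical ones. After it, 5 of the 8 members were called, 1 higher and 4 lower, beside 47.5% of all genes. The share of all calls that were higher was 52.5% as deposited and 41.6% with each library scaled to the same total, which moved the median of all genes from 0.02 to -0.11, whereas 51.5% were higher after the correction.

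BIK (chromosome 22, plus strand, 43110748 to 43129712) encodes a BH3-only protein of the endoplasmic reticulum. It stood at 4.62, 5.27 and 4.47 FPKM in parental libraries and at 1.13, 1.05 and 0.703 in those labelled knockout. The groups lay far apart, with means of 4.78 ± 0.425 and 0.961 ± 0.226 (SD, n = 3). The log2 fold change was -1.56 (SE 0.13, limma adjusted p = 3.21e-05), and -2.07 after the correction (limma adjusted p = 5.83e-05). BIK was the 1 member called with a change of at least 2-fold, but it passed the filter only through the parental group, where it is high. Of the genes beside it on chromosome 22, MCAT rose by 0.86 (limma adjusted p = 2.64e-04) and TSPO by 0.71 (limma adjusted p = 5.97e-04), whereas PACSIN2 (0.14, limma adjusted p = 0.205) and TTLL1 (0.33, limma adjusted p = 0.0574) did not pass. After the correction MCAT rose by 0.21 (limma adjusted p = 0.0317). TSPO (-0.02, limma adjusted p = 0.830), PACSIN2 (-0.17, limma adjusted p = 0.0577) and TTLL1 (-0.10, limma adjusted p = 0.619) then did not pass. No neighbour was called lower under either setting.

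PMAIP1 stood at 18.8, 14.6 and 12.5 FPKM in parental libraries and at 8.07, 10.9 and 7.13 in those labelled knockout. The groups did not overlap, with means of 15.3 ± 3.19 and 8.71 ± 1.98 (SD, n = 3). The log2 fold change was -0.75 (SE 0.17, limma adjusted p = 0.00446), and it shrank to -0.25 after the correction (limma adjusted p = 0.0314). MCL1, whose protein NOXA binds, stood at 93.3, 86.0 and 75.2 in parental and at 66.6, 68.2 and 57.5 in labelled libraries, again without overlap. Its log2 fold change was -0.40 (SE 0.11, limma adjusted p = 0.00928), and -0.25 after the correction (limma adjusted p = 0.0281). BIK, PMAIP1 and MCL1 were lower in each of 15 other fits with an adjusted p under 0.05.

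BCL2L1 stood at 24.6, 27.8 and 31.2 FPKM in parental libraries and at 40.6, 36.7 and 41.8 in those labelled knockout, with no overlap. Its log2 fold change of 0.50 (SE 0.11, limma adjusted p = 0.00279) became -0.0025 after the correction (95% interval -0.15 to 0.14, limma adjusted p = 0.977). BAK1 stood at 10.9, 11.4 and 13.1 in parental and at 15.5, 15.0 and 16.0 in labelled libraries, also apart. Its log2 fold change of 0.37 (SE 0.10, limma adjusted p = 0.00819) fell short at 0.23 with each library scaled to the same total (limma adjusted p = 0.0650) and turned to -0.24 after the correction (limma adjusted p = 0.0112). The direction of BCL2L1 and BAK1 in MHCC97H thus depended on whether the trend with GC content was kept. AL117381.1 and ABALON overlap BCL2L1 and GGNBP1 overlaps BAK1 on the other strand, and BAK1 has the copies BAK1P1 and BAK1P2, whose reads could have been shared.

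BMF stood at 3.98, 3.78 and 4.94 FPKM in parental libraries and at 7.95, 6.65 and 6.60 in those labelled knockout. The groups did not overlap, and the log2 fold change was 0.63 (SE 0.12, limma adjusted p = 0.00197), or 0.28 after the correction (limma adjusted p = 0.0327). BMF-AS1 lies on its other strand. BID (chromosome 22, minus strand, 17734138 to 17774770), which is cleaved by caspase-8 and so joins the death receptors to the mitochondrion, stood at 24.2, 26.6 and 31.1 and at 31.1, 40.5 and 36.7. The highest parental library and the lowest labelled library were level, the log2 fold change was 0.39 (SE 0.12, limma adjusted p = 0.0204), and 6 of 15 other fits kept the call. After the correction it was 0.21 (limma adjusted p = 0.144), so that BID was no longer called. BCL2L11 stood at 4.11, 4.15 and 4.32 and at 4.52, 3.56 and 3.78, with overlapping ranges and a log2 fold change of -0.07 (95% interval -0.32 to 0.18, limma adjusted p = 0.575). BCL2 (chromosome 18, minus strand, 63123346 to 63320128) was at 0.114 to 0.233 FPKM in parental and 0.0305 to 0.0990 in labelled libraries, and BCL2A1 reached at most 0.170, both under the filter.

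Between the control groups the cell lines differed in 8 of the 8 members that passed the filter, among 12046 genes of which 79.8% were called, 38.8% as higher in parental MHCC97H and 40.9% as lower. Cell line, vector and any batch cannot be told apart in this comparison, which also shares its libraries with both others. BCL2L1 was 4.88 times as high in vector PLC/PRF5 as in parental MHCC97H cells by mean FPKM (log2 difference -2.25, SE 0.10, limma adjusted p = 8.69e-08), and BAK1 was 2.12 times as high (-1.02, SE 0.10, limma adjusted p = 2.09e-05). The other 6 were higher in MHCC97H: BID by 4.58, BIK by 1.92, BMF by 0.79, PMAIP1 by 0.75, BCL2L11 by 0.58 and MCL1 by 0.44 on the log2(FPKM + 1) scale, with limma adjusted p from 4.48e-09 to 0.0114. These directions were the same after the correction and under both other scalings. BCL2, with genes kept at any FPKM above 0, was also higher in MHCC97H, by 0.18 on the same scale (95% interval 0.08 to 0.29, limma adjusted p = 0.0103), where 30.5% of 20129 genes were called higher. This scale shrinks differences between values near 0: the mean FPKM of BCL2 was 0.162 in parental and 0.0243 in vector libraries, a ratio of 6.65. BID and BIK passed the filter only through the parental group.

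BID showed the widest gap between the lines. Its FPKM was 0.126, 0.261 and 0.156 in vector libraries and 0.128, 0.0283 and 0.112 with EGR1 overexpression, against 24.2 to 40.5 in the 6 MHCC97H libraries. The parental mean was 151 times the vector mean. The genes beside it were expressed in both lines: ATP6V1E1 had a mean of 75.7 in vector and 88.2 in parental cells, BCL2L13 of 7.42 and 13.9, MICAL3 of 5.02 and 5.27 and PEX26 of 4.47 and 3.62. Of these 5 genes, BID alone had a mean under 1 FPKM in the vector libraries. The DNA of this line was not analysed here.

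Summed over the 4 guardians, the FPKM was 198 ± 3.25 in vector, 194 ± 11.1 in overexpression, 113 ± 5.95 in parental and 104 ± 4.06 in labelled knockout libraries (SD, n = 3). The guardians were nearly all BCL2L1 and MCL1. BCL2L1 held 68.6% ± 1.92 of the sum in vector, 61.9% ± 2.80 in overexpression, 24.8% ± 4.26 in parental and 38.3% ± 3.59 in labelled knockout libraries (SD, n = 3). The 5 BH3-only members summed to 14.1 ± 3.00 FPKM in vector, 23.9 ± 0.693 in overexpression, 55.8 ± 1.48 in parental and 56.8 ± 5.22 in labelled knockout libraries (SD, n = 3). The sums and shares cover the members only and not every guardian or BH3-only gene. BAD, a BH3-only gene outside them, alone had means of 56.5, 53.9, 26.5 and 59.0 FPKM in the same order. The guardian BCL2L2, also outside them, had means of 9.34, 15.9, 4.05 and 6.23. PMAIP1 held 62.0% ± 7.38 of the BH3-only sum in vector and 73.6% ± 2.16 in overexpression libraries. In MHCC97H BID held the largest share of it, 48.8% ± 5.42 in parental and 63.4% ± 4.07 in labelled knockout libraries, and the share of PMAIP1 was 27.5% ± 5.99 and 15.2% ± 2.23 (SD, n = 3). The sums of these 5 members overlapped between the MHCC97H groups, while PMAIP1 and BIK held less of the sum in the labelled knockout and BID and BMF more. These sums and shares are of FPKM as deposited, with the GC trend kept. After the GC and length correction the labelled knockout changes of BCL2L1 (-0.0025, limma adjusted p = 0.977) and BID (0.21, limma adjusted p = 0.144) were not called. Those of PMAIP1 (-0.25), BIK (-2.07) and BMF (0.28) were. In a bulk sample, fewer cells with a transcript and less of it in each cell cannot be told apart.

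**Figure D3:**
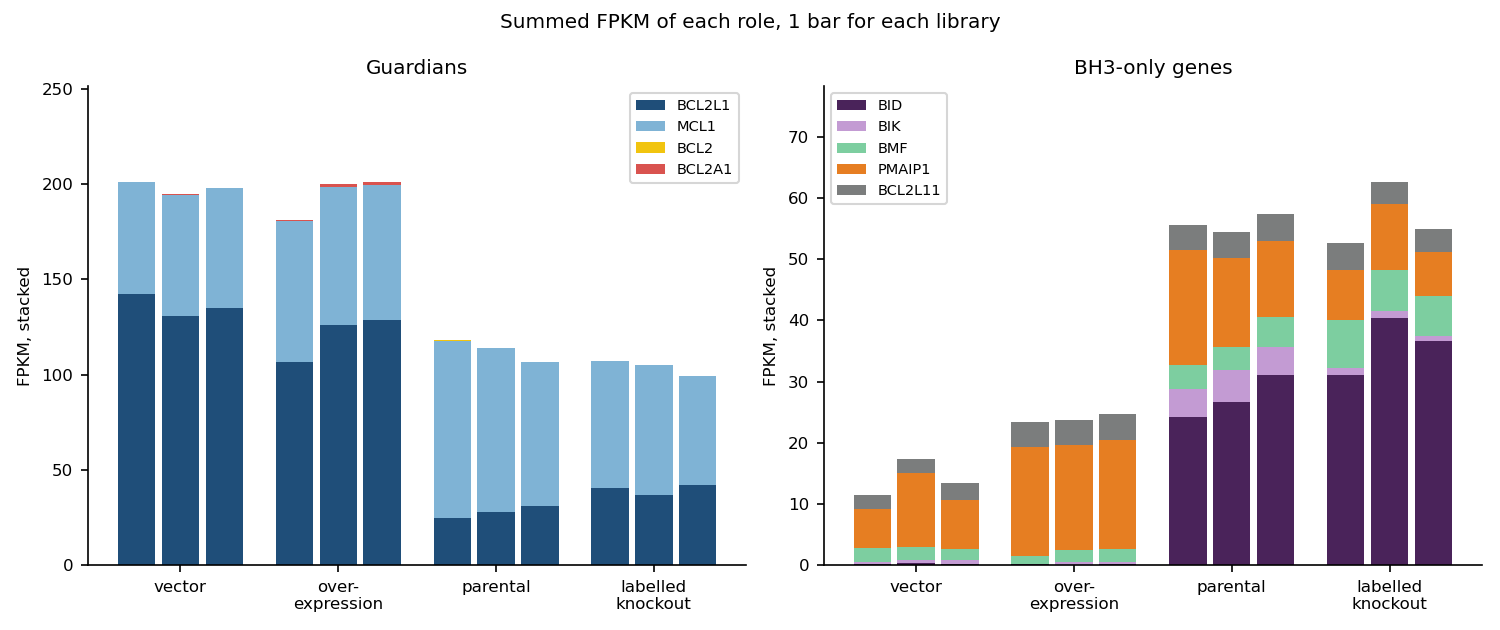
Summed FPKM of the guardian members (left) and of the BH3-only members (right), stacked by gene with 1 bar for each of the 3 libraries of a group, vertical axes from 0. BCL2L1 fills most of the guardian bars in PLC/PRF5 and MCL1 in MHCC97H, and BID is the largest part of the BH3-only bars in MHCC97H and barely visible in PLC/PRF5.

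Ratios of members within a library do not depend on how that library was scaled, and 3 were taken after the values had been seen. MCL1 to PMAIP1 was 9.21, 5.25 and 7.83 in vector libraries and 4.17, 4.23 and 3.99 with EGR1 overexpression. It was 4.97, 5.89 and 6.01 in parental and 8.25, 6.24 and 8.07 in labelled knockout libraries. The ratio was lower with overexpression and higher in the labelled knockout, without overlap in either cell line, each with an exact permutation p of 0.1, 2-sided, the smallest that 3 against 3 libraries allow. The fitted log2 difference was -0.73 with overexpression and -0.51 after the GC and length correction. In the labelled knockout it was 0.35 and 0.01, so that the difference between these genes in MHCC97H was not seen once the GC trend had been taken out.

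BCL2L1 to MCL1 was 2.42, 2.05 and 2.13 in vector and 1.44, 1.73 and 1.81 in overexpression libraries. It was 0.264, 0.323 and 0.415 in parental and 0.609, 0.538 and 0.727 in labelled knockout libraries. BCL2L1 led in each PLC/PRF5 library and MCL1 in each MHCC97H library, and within each line the ratio moved toward 1 from the control to the other group (exact permutation p = 0.1, 2-sided, in each line). After the correction the fitted log2 difference went from -0.40 to -0.29 with overexpression and from 0.90 to 0.24 in the labelled knockout. BCL2L1 to BAK1, a guardian against the effector it restrains, was 5.46 ± 0.431 in vector and 4.27 ± 0.279 in overexpression libraries, and 2.36 ± 0.0942 in parental and 2.56 ± 0.0982 in labelled knockout libraries (SD, n = 3). The fitted log2 difference of this ratio was -0.35 as deposited and -0.37 corrected with overexpression, and 0.13 and 0.24 in the labelled knockout.

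**Figure D4:**
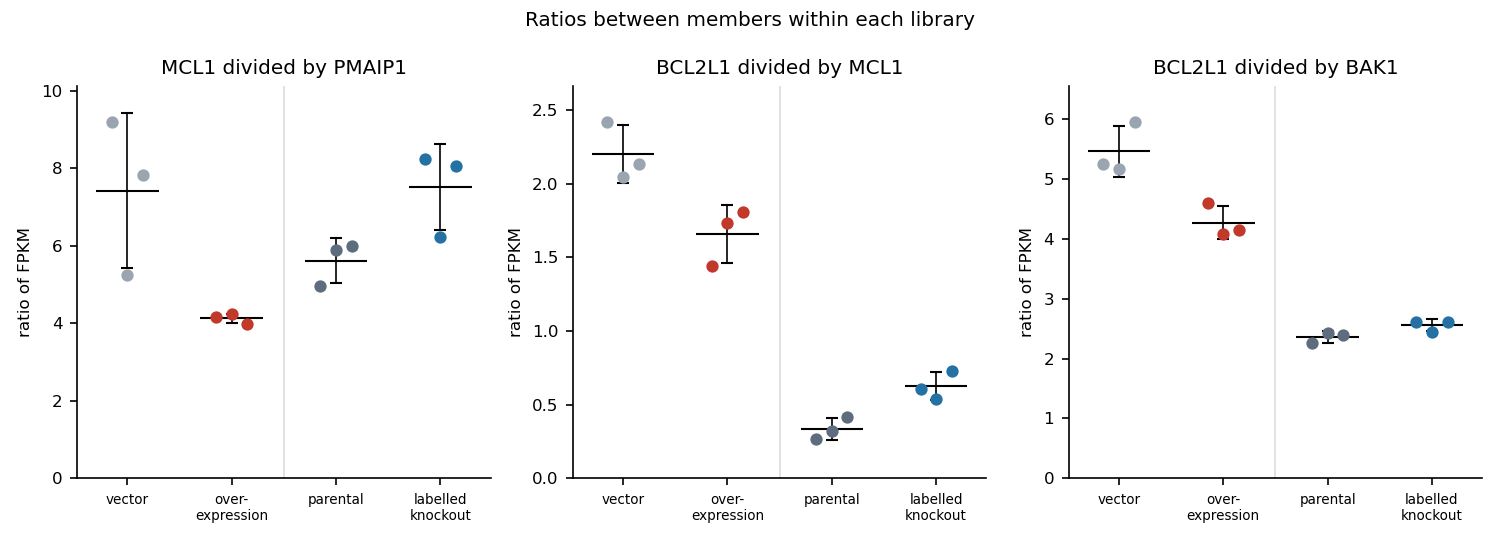
Ratio of FPKM between members within each library on the vertical axes, which start at 0, with 1 point for each library, the mean as a line and the SD as a bar (n = 3). MCL1 to PMAIP1 lies between 3.99 and 4.23 in the overexpression libraries, under all vector libraries, and BCL2L1 to MCL1 is above 1 in PLC/PRF5 and below 1 in MHCC97H.

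The rest of the death machinery was followed in 4 lists with 69 genes. Beside each count stands the share of all genes called, in either direction, in the same comparison (47.5% for the corrected labelled knockout). A share near it is no result about the list. Of 13 other family members, 9 were tested in PLC/PRF5, with 1 higher and 1 lower (29.6% of all genes; median log2 fold change 0.06, against 0.09 for all genes tested). Of 10 tested in MHCC97H, 6 were higher and 3 lower in the labelled knockout (66.3% of all genes; median 0.50, against 0.02), and 4 and 2 after the correction (47.5% of all genes; median 0.12). BCL2L2, the guardian BCL-w, rose in both comparisons, from 9.34 ± 0.961 to 15.9 ± 2.17 FPKM with overexpression (log2 fold change 0.70, limma adjusted p = 0.00386) and from 4.05 ± 0.184 to 6.23 ± 0.404 in the labelled knockout (0.52, limma adjusted p = 0.00189, or 0.27 corrected, limma adjusted p = 0.0339, SD and n = 3 throughout). The readthrough gene BCL2L2-PABPN1 shares its exons, and reads could have been split between them. BNIP3L, a mitophagy receptor, fell in both, by 0.53 (limma adjusted p = 0.0171) and by 0.74 (limma adjusted p = 0.00168), but not after the correction in MHCC97H (-0.20, limma adjusted p = 0.0705).

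The BH3-only genes BAD and BBC3, which encodes PUMA, were higher in the labelled knockout. BAD went from 26.5 ± 2.70 to 59.0 ± 6.62 FPKM (SD, n = 3), which is 1.12 on the log2 scale (limma adjusted p = 6.40e-05), or 0.36 corrected (limma adjusted p = 0.00376). BBC3 went from 4.15 ± 0.469 to 9.37 ± 0.773 FPKM (SD, n = 3), which is 1.01 on the log2 scale (limma adjusted p = 1.07e-04), or 0.25 corrected (limma adjusted p = 0.0649). BBC3 thus passed only with the GC trend kept. BNIP3 fell by 0.76 there (limma adjusted p = 3.12e-04), or by 0.98 corrected (limma adjusted p = 1.98e-04). With overexpression BAD (-0.07), BBC3 (-0.19) and BNIP3 (-0.15) did not pass.

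Of 18 genes of the apoptosome, caspases and their inhibitors, 4 were higher and 1 lower with overexpression (29.6% of all genes; median 0.15, against 0.09), and 6 higher and 8 lower in the labelled knockout (66.3% of all genes; median -0.29, against 0.02; corrected 4, 5 and 0.03). The inhibitor genes BIRC2 and BIRC3, which encode the ubiquitin ligases cIAP1 and cIAP2, moved in opposite directions in the cell lines. BIRC2 went from 12.1 ± 3.43 to 24.4 ± 1.70 FPKM with overexpression (log2 fold change 0.99, limma adjusted p = 0.00386) and from 18.0 ± 3.29 to 8.39 ± 2.30 in the labelled knockout (-1.03, limma adjusted p = 0.00108, SD and n = 3). BIRC3 changed by 0.75 (limma adjusted p = 0.00775) and by -1.20 (limma adjusted p = 2.27e-04). Both kept their direction and call after the correction, with 0.68 and 0.29 with overexpression and -0.45 and -0.47 in the labelled knockout. BIRC5, or survivin, which also serves mitosis, moved the other way, by -0.36 (limma adjusted p = 0.0113) and by 0.50 (limma adjusted p = 0.00146), the second of which was 0.22 corrected (limma adjusted p = 0.0169). DFFB, the apoptotic nuclease, changed by 0.47 (limma adjusted p = 0.0178) and by -0.36 (limma adjusted p = 0.0175), the second of which was -0.62 corrected (limma adjusted p = 0.00161). CYCS, cytochrome c, changed by 0.42 with overlapping ranges (limma adjusted p = 0.0484) and by -0.52 (limma adjusted p = 0.00800), and neither passed after the correction. ENDOG (0.81, limma adjusted p = 3.55e-04) and HTRA2 (0.66, limma adjusted p = 0.00158) rose in the labelled knockout as deposited but not corrected (0.04 and 0.03).

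Of 16 genes of the death receptor pathway, 12 were tested in PLC/PRF5, with 1 higher and 2 lower (29.6% of all genes; median 0.04, against 0.09), and 13 in MHCC97H, with 5 higher and 2 lower (66.3% of all genes; median 0.19, against 0.02; corrected 2, 1 and 0.06). CFLAR, which encodes FLIP, the decoy of caspase-8, rose with overexpression from 17.5 ± 1.48 to 28.6 ± 2.77 FPKM (SD, n = 3), which is 0.68 on the log2 scale (limma adjusted p = 0.00235), or 0.38 corrected (limma adjusted p = 0.00813). The receptor TNFRSF10B, or DR5, fell in both comparisons, by 0.31 (limma adjusted p = 0.0282) and by 0.28 (limma adjusted p = 0.0201), and by 0.32 and 0.40 corrected. TNFRSF1A, the TNF receptor, changed by -0.43 (limma adjusted p = 0.00645) and by 0.75 (limma adjusted p = 2.34e-04), the second of which was 0.18 corrected (limma adjusted p = 0.0285). TRADD, its adaptor, rose by 0.91 in the labelled knockout (limma adjusted p = 7.18e-05), or by 0.16 corrected (limma adjusted p = 0.0523), and CASP10 fell by 0.36 (limma adjusted p = 0.0267), or by 0.22 corrected (limma adjusted p = 0.135).

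Of 22 regulators of the family, 21 were tested in each line, with 3 higher and 2 lower with overexpression (29.6% of all genes; median -0.03, against 0.09) and 5 higher and 6 lower in the labelled knockout (66.3% of all genes; median 0.06, against 0.02; corrected 3, 7 and -0.15). DDIT3, or CHOP, a stress factor known to induce BCL2L11, rose in both, by 0.75 (limma adjusted p = 0.0182) and by 0.44 (limma adjusted p = 0.00411), the second of which was 0.21 corrected (limma adjusted p = 0.0457). TRIB3 changed by -0.37 (limma adjusted p = 0.0116) and by 0.45 (limma adjusted p = 0.00262), the second of which became -0.18 after the correction (limma adjusted p = 0.0145). Of the genes that act on the MCL1 protein, FBXW7, part of a ligase that marks it for degradation, changed by 0.49 (limma adjusted p = 0.00720) and by -0.37 (limma adjusted p = 0.0236), and the second was no longer called after the correction (-0.22, limma adjusted p = 0.0845). USP9X, which removes such marks, changed by 0.36 (limma adjusted p = 0.0269) and by -0.78 (limma adjusted p = 8.16e-04), and neither was called after the correction (-0.01, limma adjusted p = 0.925, and -0.15, limma adjusted p = 0.151). MARCHF5 fell by 0.84 in the labelled knockout (limma adjusted p = 1.15e-04), and no corrected value was computed, since the name was not matched to a GENCODE 29 transcript. BAG1, a partner of BCL2, rose there by 1.06 (limma adjusted p = 1.32e-04) and by 1.01 after the correction.

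Over the 4 lists 13 of the 59 genes tested in both comparisons, which share no library, were called in both, beside 21.5% of all 10369 genes tested in both, so that the number is near that of all genes. Of these, 2 were higher in both (BCL2L2 and DDIT3), 2 were lower in both, 6 were higher with overexpression and lower in the labelled knockout, and 3 were the reverse. After the correction 13 of 58 were again called in both, beside 17.6% of all genes, 3 higher in both, 4 lower in both, 4 higher and then lower, and 2 the reverse, and the lists of names differed. BCL2L2, DDIT3, TNFRSF10B, DFFB, BIRC2, BIRC3, BIRC5 and TNFRSF1A had the same call and direction under both.

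**Figure D5:**
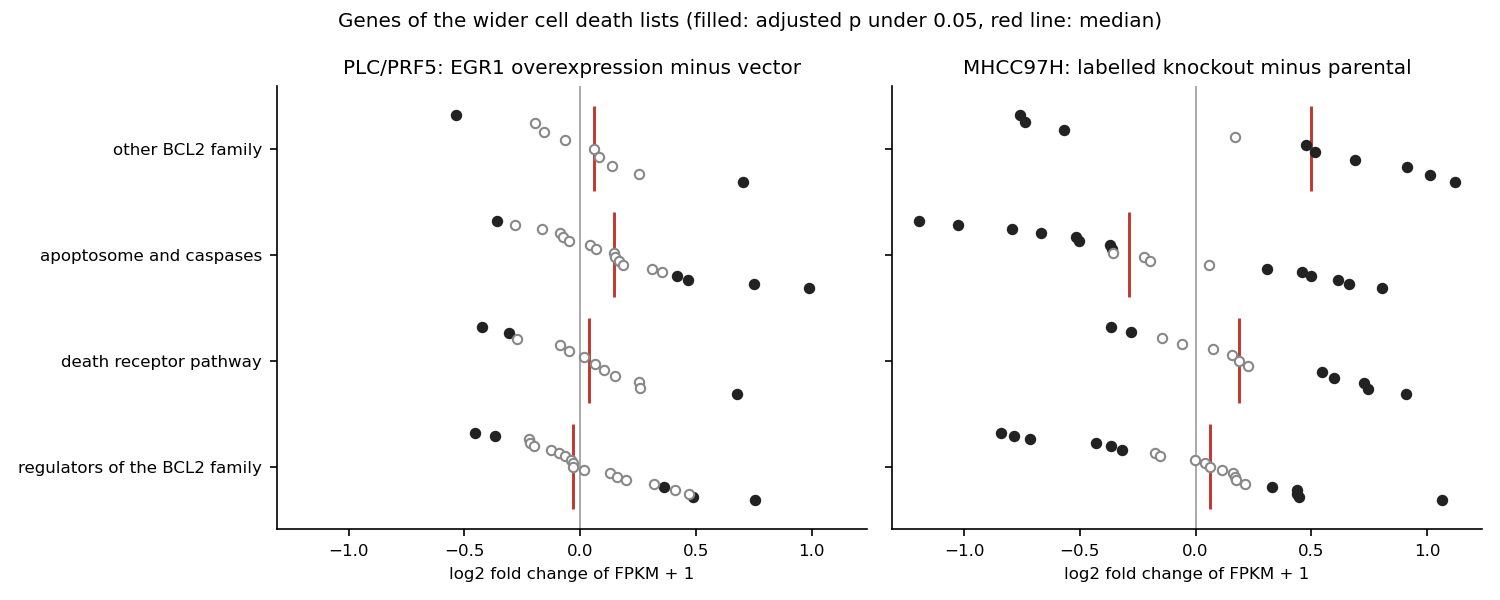
Log2 fold change of FPKM + 1 on the horizontal axis for each tested gene of the 4 lists, for EGR1 overexpression against vector (left) and labelled knockout against parental (right), filled where the adjusted p was under 0.05, with the list's median as a red line. Most points on the left are open, and on the right filled points stand on both sides of 0 in each list.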

How the data were processed

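Polyadenylated RNA was captured on oligo(dT) beads, made into libraries, thinned of abundant sequences with duplex-specific nuclease and read on an Illumina NovaSeq. FPKM were deposited by the authors for 12 libraries. Per the labels they used StringTie and hg38; the aligner, the annotation and the strand setting are not given in the sources used here. FPKM keep no read number, so depth and floors are unknown, and they do not separate splice forms. The 10 members, the lists and the tests were chosen with earlier results of these data known. Each comparison was fitted alone with limma 3.58.1 (R 4.3.3, intensity trend) on log2(FPKM + 1), for genes with a mean of at least 1 FPKM, 2-sided, Benjamini-Hochberg over all genes tested, threshold 0.05. On simulated data 90.0%, 89.5% and 86.0% of 200 genes changed by 1 on the log2 scale were recovered (overexpression, labelled knockout and cell line designs). Of the unchanged genes 0.132%, 0.0797% and 0.0347% were called. The simulation drew independent normal noise without a GC trend and changed few genes, none of them low in expression. It therefore does not give the power or the error of the calls reported here, many of which are smaller changes. The GC and length correction took a spline of 5 degrees of freedom out of each library, using GENCODE 29 transcripts, found for 19458 of the 22963 names. Named genes were the 10 members, EGR1, list genes called in both EGR1 comparisons and, per list and comparison, the 2 largest rises and falls among called genes whose groups did not overlap, of which 1 is not reported here. Promoter windows came from RefSeq (GRCh38.p14). Plots came from matplotlib 3.10.9 (Python 3.11.15). Alternatives were a pseudocount of 0.1, any FPKM above 0, the same FPKM total, quantile normalization, no trend, 1 fit of 12 libraries, the replicate number as a block, the correction with and without it, a threshold of 0.01, a 2-fold minimum and leaving out each library.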

Additional observations from a re-analysis of the deposited data

How the results depend on the processing

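The fold changes of the members were refitted 330 times, and 309 values had the direction and the call reported, 10 kept the direction and lost the call, 3 gained it and 8 changed sign. Some of the 8 also lost the call, since BCL2L1 in the labelled knockout was called in 13 of 15 other fits. The causes were not tested. Members called were 4 with overexpression when genes at any FPKM above 0 were kept (2 reported), and with a 2-fold minimum 0, 1 and 4 in the overexpression, labelled knockout and cell line comparisons (2, 7 and 8 reported), and the first of these was also 0 at an unadjusted p under 0.05 with limma. With each library left out the members called ranged from 2 to 3, from 6 to 7 and from 8 to 8. Over all genes, 3457 were called with overexpression, 1468 at an adjusted p under 0.01 and 206 with a 2-fold minimum, and 1944 to 4007 with each library left out, lowest without overexpression replicate 2; without overexpression replicate 3 they were 2213 and without vector replicate 3 2240. In the labelled knockout comparison 7671 were called, 1029 with a 2-fold minimum and 6446 to 7541 with each library left out, and between the cell lines 9607, 4431 and 8946 to 9574. Signs changed for BMF with overexpression (-0.23 to 0.017 with each library left out, the highest without overexpression replicate 1) and, in the labelled knockout, for BCL2L1 (-0.0025) and BAK1 (-0.24) with the GC and length correction, and for BCL2L11 with the correction (0.074) and with quantile normalization (0.026). The same values came from the correction with the replicate block. BID lost its call in the labelled knockout without knockout replicate 2 or 3 or parental replicate 1 or 2 (limma adjusted p 0.0513 to 0.0705), and MCL1 passed with overexpression without vector replicate 2 (0.0475). Same-numbered libraries correlated at -0.132, 0.136 and -0.0758 in PLC/PRF5 and at 0.0317, 0.0302 and 0.467 in MHCC97H. Differently numbered libraries correlated at -0.165 to 0.205 and at -0.408 to 0.381. The labels do not say whether a shared number marks a pair, and these values cannot decide it. With the replicate block 2, 7 and 8 members were called, and 3253, 7987 and 9249 genes. FPKM keep no read number, so the low values of BCL2, BCL2A1, BID and BIK have no counting interval.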
